A study of Homo sapiens with 4 samples.

Results

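Of the 11266 peaks called without TGFβ-1 in the library labelled LAP-Smad2, 2592 overlapped a LAP-Smad3 peak called after TGFβ-1 and no LAP-Smad2 peak called after TGFβ-1. The overlap had to reach 1 bp, and these peaks are called members here. They made up 23.0% of that untreated list (Wilson 95% interval 22.2 to 23.8%) and 57.7% of its 4495 peaks with a treated LAP-Smad3 peak. The number depends on the lists compared, being 922 with the treated LAP-Smad3 list limited to the length of the untreated list and 802 without windows that have a near-identical copy. The 4 lists of the study held 104156 peaks in all. The members were chosen by the peak calls of 3 of the lists, so their number and their peak scores are descriptions. The members were read against 58001 treated LAP-Smad3 peaks that overlapped no peak of the same untreated list, called the comparison peaks.

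The study measured binding of tagged Smad2 and Smad3 by ChIP-seq in MDA-MB-231 cells, an established line from a human breast tumour. Each line carried a bacterial artificial chromosome with SMAD2 or SMAD3 and its own control elements, tagged for localization and affinity purification (LAP), and was grown under Geneticin and sorted for GFP as a population. Anti-GFP antibody pulled down the tagged Smad, and the untagged Smads of the cells remained present in every library. LAP-Smad2 and LAP-Smad3 cells were left untreated or received TGFβ-1 at 10 ng/mL for 2 h, with 1 library per condition. No replicate spread exists, so no test between conditions was made. Intervals cover counting error over peaks only, and peaks of 1 library are not replicates.

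Receptor-regulated Smads are phosphorylated by the TGFβ receptor, join Smad4 and enter the nucleus, where they bind short DNA elements together with other transcription factors. The classical Smad-binding element (SBE) has the core CAGAC, and GC-rich sites such as GGCGC are also bound. Without ligand, receptor-regulated Smads are largely cytoplasmic. Repeated DNA, which bears on most members, includes dispersed elements such as Alu, copied across all chromosomes, and tandem arrays, in which 1 unit recurs many times in a row.

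The untreated library's label and the name of its deposited list disagreed: the label says LAP-Smad2, whereas the list is named for Smad3. The reverse held for the fourth library, labelled LAP-Smad3 untreated. Within 100 kb of the SMAD2 and SMAD3 genes, where extra copies from the artificial chromosome are present, the treated LAP-Smad2 list had 27 and 1 peaks and the treated LAP-Smad3 list 4 and 53. The untreated library labelled LAP-Smad2 had 2 and 0 there, so these loci showed neither tag. The fourth library had 20 near SMAD2 and 1 near SMAD3, against its label. No member lay at either locus, and no statement below rests on which Smad the untreated library carried. The lists also differed in length, from 3511 peaks in the fourth list to 62551 in the treated LAP-Smad3 list, and the read depth behind them is unknown.

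The sequences under the members are shown first. Each member was represented by the 200 bp on its centre, and each of the 20-base words in that window was counted in the hg38 reference without its alternate sequences. Words were then picked in turn as the most frequent among member windows that held none of the earlier ones. The 3 shown, called A, B and C here, were numbers 3, 4 and 6 in that order of picking and were chosen after their values were seen. Words were picked by their frequency among members, so their shares are descriptions. All 3 had a higher share in member than in comparison windows. Only word A was also more frequent in members than in untreated peaks of neither treated list.
Word A: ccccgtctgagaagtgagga
Word B: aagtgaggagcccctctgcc
Word C: atatataatatataatatat
Word A, with 2513 occurrences in hg38, was in 117 member windows, 4.51% (3.78 to 5.38%), and in 23 comparison windows, 0.0397% (0.0264 to 0.0595%). Word B was in 3.32% of member and 0.131% of comparison windows, with 4008 occurrences in hg38. Word C, built of A and T alone, was in 30 member windows and in 0 of the comparison windows. In the 4921 untreated peaks of neither treated list, word A was in 2.15% of windows (1.78 to 2.60%), word B in 3.47% (3.00 to 4.02%) and word C in 5.12% (4.54 to 5.77%), the last against 1.16% (0.812 to 1.65%) of members.

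The windows of the highest ranked members show further kinds of sequence. None of the windows printed here is of the dispersed class described below, which holds 57.3% of members. Of the member windows with words A, B and C, 0.855, 36.0 and 0% were of that class. Members were ranked by the lower of their percentile ranks of deposited −log10 q in the untreated and the treated LAP-Smad3 list. Capitals mark CAGAC or GGCGC on either strand, and 100 bases on the centre are given on the plus strand of hg38. The first 4 are among the 5 highest ranked with no near-identical copy, meaning no second alignment with 180 of 200 bases matching. The next is the highest ranked of those with a copy.
AT-rich, intergenic, chr6:166288568-166288667: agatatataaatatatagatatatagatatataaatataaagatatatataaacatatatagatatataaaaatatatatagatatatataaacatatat
AT-rich, intron of SHANK2, chr11:71085845-71085944: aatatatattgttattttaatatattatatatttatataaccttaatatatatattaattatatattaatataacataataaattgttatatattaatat
PCGF3 promoter region, chr4:725548-725647: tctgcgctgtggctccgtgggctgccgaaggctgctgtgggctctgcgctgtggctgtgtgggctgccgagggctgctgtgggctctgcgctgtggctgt
Non-coding gene ENSG00000267605 on chromosome 19, chr19:37269650-37269749: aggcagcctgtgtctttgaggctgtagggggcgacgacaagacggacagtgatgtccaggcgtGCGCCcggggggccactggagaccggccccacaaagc
rRNA repeat at MIR6724-2, chr21:8249279-8249378: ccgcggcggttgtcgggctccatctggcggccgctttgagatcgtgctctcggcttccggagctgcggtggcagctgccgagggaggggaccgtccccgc
The first and second windows were almost entirely A and T, with a GC content of 8.5 and 6.5% over 200 bp. The window near PCGF3 repeated a GC-rich unit. A further 4 windows were chosen after their values were seen, as the highest ranked of the arrays and classes described below.
DUX4 repeat near DUX4L2, chr4:190090050-190090149: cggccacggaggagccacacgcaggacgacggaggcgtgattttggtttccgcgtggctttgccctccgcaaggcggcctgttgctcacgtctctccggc
5S rRNA repeat at RNA5S14, chr1:228639827-228639926: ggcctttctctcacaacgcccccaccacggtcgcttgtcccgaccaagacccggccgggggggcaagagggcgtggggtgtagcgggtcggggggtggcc
DXZ4 repeat in DANT1, chrX:115862528-115862627: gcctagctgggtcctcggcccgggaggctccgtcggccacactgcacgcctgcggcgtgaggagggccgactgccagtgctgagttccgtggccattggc
Single-copy window in SLC38A10, chr17:81256354-81256453: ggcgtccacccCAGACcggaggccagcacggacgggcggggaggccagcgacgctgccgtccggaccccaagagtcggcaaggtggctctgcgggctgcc
The DUX4, 5S and DXZ4 windows held neither element in these 100 bases, and the single-copy window in an intron of SLC38A10 held 1 CAGAC.

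Nearly all members lay in sequence that recurs in the genome. The median count of the words of a window was 1 in 27 members, 1.04% (0.717 to 1.51%), against 37.6% (37.2 to 38.0%) of the comparison windows. At the other end, the median count was 10000 or more in 43.4% of members and 16.3% of comparison windows. An alignment-based measure gave the same order, with a near-identical copy in 69.1% (67.3 to 70.8%) of member and 32.4% (32.0 to 32.7%) of comparison windows. This measure can miss copies of highly repeated windows, since the most frequent short matches were ignored. The single-copy share of members was the lower in 23 of 24 chromosomes, the exception being Y, with 26 members. Untreated peaks in neither treated list were single-copy in 10.5%, and those in both treated lists in 0.788%, so the low share was not particular to the members among the untreated peaks. How the authors treated reads that align equally well to several copies is not given in the sources used here, and its part in these shares was not tested.

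**Figure D1:**
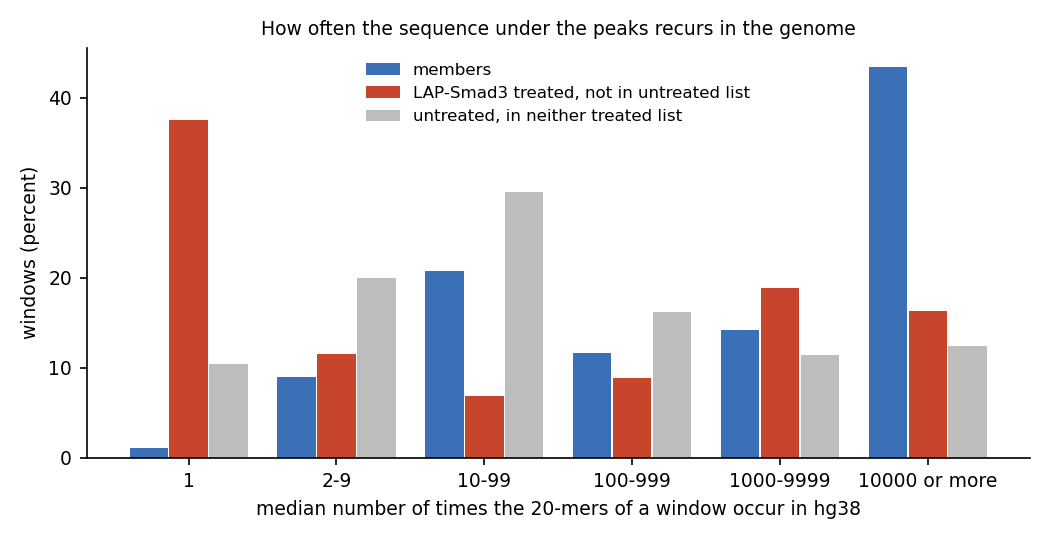
Median number of times the 20-base words of a 200-bp window occur in hg38 (x axis, 6 ranges) against the percent of windows (y axis), for members (n = 2592), comparison peaks (n = 58001) and untreated peaks in neither treated list (n = 4921). Members are at 1.04% for a count of 1 and at 43.4% for 10000 or more; comparison peaks are at 37.6% and 16.3%.

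The windows were sorted into 5 classes: AT-rich (GC content up to 20%), dispersed (median word count of 1000 or more), tandem array (at least 3 alignments of 180 matching bases within 200 kb, its own included), single-copy, and other repeated. Members were dispersed in 57.3% (1486), other repeated in 17.8% (461), tandem array in 16.7% (432), AT-rich in 7.18% (186) and single-copy in 1.04% (27). In comparison peaks these shares were 35.2%, 23.5%, 3.64%, 0.0328% and 37.6%. Tandem arrays and AT-rich windows were thus the classes with the largest ratio between members and comparison peaks.

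The classes of the untreated list met the rule at different rates. Of 3522 dispersed untreated peaks, 42.2% (40.6 to 43.8%) were members, and of 1260 tandem-array peaks 34.3% (31.7 to 37.0%). The share was 11.3% (10.4 to 12.3%) of 4070 other repeated peaks, 10.4% (9.05 to 11.9%) of 1792 AT-rich peaks and 4.34% (3.00 to 6.24%) of 622 single-copy peaks, beside 23.0% over the whole list. The other repeated class went more often with treated LAP-Smad2 alone, at 32.1%, than with treated LAP-Smad3 alone. AT-rich peaks were found in neither treated list in 88.4% of cases. They made up 15.9% of the untreated list but 0.333% of the treated LAP-Smad3 list, 0.0969% of the treated LAP-Smad2 list and 0.171% of the fourth list.

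**Figure D2:**
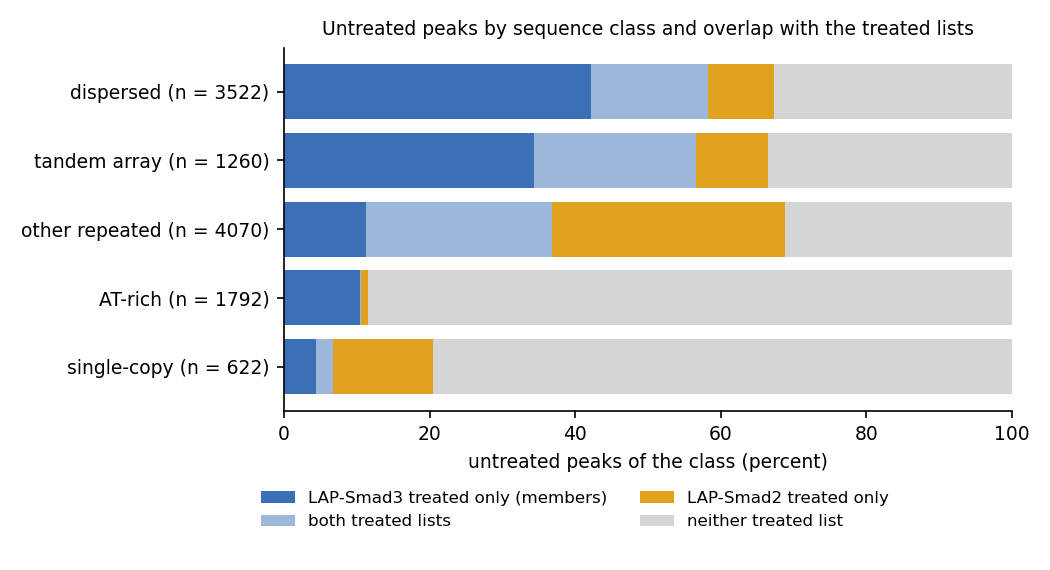
Percent of untreated peaks of each sequence class (x axis) that overlapped the treated LAP-Smad3 list only (members), both treated lists, the treated LAP-Smad2 list only or neither. The member segment is 42.2% for dispersed and 34.3% for tandem-array peaks and 4.34% for single-copy peaks.

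GC content over the members had 3 modes. The main one, at 57.5 to 60%, was shared with the comparison peaks, whereas 186 members had 20% or less and 468 (18.1%) had 70% or more. Of the comparison windows, 19 (0.0328%) had 20% or less and 683 (1.18%) had 70% or more. The means therefore lay close together, at 56.6 ± 16.5% in members (SD over peaks, n = 2592) and 58.4 ± 4.85% in comparison peaks (SD over peaks, n = 58001). The sign of their difference changed with the overlap criterion, since a mutual overlap of 50% gave 59.4% in members and 58.4% in comparison peaks. That criterion also loosens the exclusion of treated LAP-Smad2 peaks, so it admits other peaks as members. The medians under the rule were 59.0 and 58.5%. A GC content of 70% or more was not particular to the members, since 31.6% of the whole untreated list had it. The share was 48.3% of untreated peaks in both treated lists, 62.1% with treated LAP-Smad2 alone and 20.9% in neither, each above the members. Windows of 20% or less made up 15.9% of the untreated list. CpG dinucleotides were more frequent in members than in comparison peaks, with a median observed to expected ratio of 0.759 against 0.439. In the whole untreated list this median was 0.603. Among dispersed windows, the mean ratio was 0.804 in members and 0.618 in comparison peaks, and among single-copy windows 0.697 and 0.340.

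**Figure D3:**
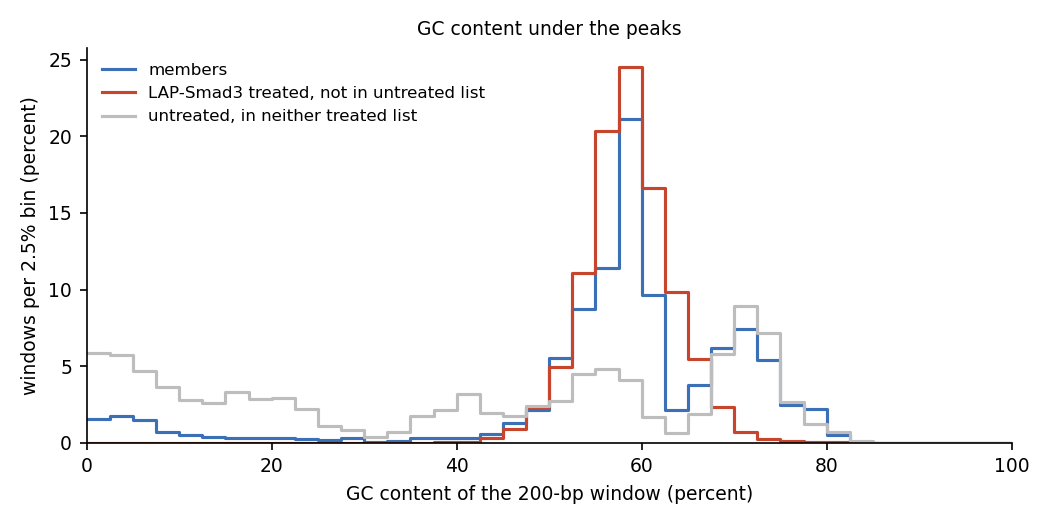
GC content of 200-bp windows (x axis, 2.5% bins) against the percent of windows per bin (y axis). Members share the peak near 58% with the comparison peaks, and unlike these also have windows under 10% and a second peak above 70%, where untreated peaks in neither treated list are frequent too.

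Smad-type elements were divided unevenly between the classes. GGCGC was in 67.8% (66.0 to 69.6%) of member and 41.5% (41.1 to 41.9%) of comparison windows. It was in 52.9% of 20032 windows on the starts of protein-coding genes and in 6.11% of 58758 windows placed every 50 kb along the genome. Among dispersed windows the shares were 88.8% in members and 69.2% in comparison peaks, and among the rest 39.5% and 26.4%. CAGAC, the SBE core, went the other way, at 18.3% (16.9 to 19.9%) in members against 34.7% (34.3 to 35.1%). Its share was 33.1% at gene starts and 28.0% along the genome. Dispersed member windows held CAGAC in 5.32% of cases, and the other member windows in 35.8%, with 15.6% and 45.1% in the comparison peaks. All matches were sought on both strands, and a match is a run of letters, not evidence of a site.

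Elements of the factors that often accompany Smads were scarcer in members. The E-box CANNTG, bound by basic helix-loop-helix factors, was in 21.4% (19.8 to 23.0%) of member windows, 57.8% (57.4 to 58.2%) of comparison windows, 51.3% at gene starts and 64.8% along the genome. It was lower in members within the dispersed class (11.6% against 36.9%) and outside it (34.4% against 69.1%). The AP-1 element TGANTCA, bound by Fos and Jun proteins, was in 0.502% of member windows (0.293 to 0.856%) and 2.80% of comparison windows (2.67 to 2.94%), beside 3.88% at gene starts and 6.38% along the genome. TGTGGT, a core of RUNX factors, was in 4.48% and 14.3%, and GGAATG, bound by TEAD factors, in 1.23% and 6.44%. Along the genome these were in 13.2% and 11.1% of windows, and at gene starts in 7.93% and 7.70%. The forkhead letters TGTTTAC were in 0.0772% of member windows, 3.27% of comparison windows, 1.36% at gene starts and 3.12% along the genome. GGGCGG, the core of SP and KLF factors, was the exception, at 25.5% (23.8 to 27.2%) in members and 17.5% (17.2 to 17.8%) in comparison peaks, with 46.9% at gene starts and 2.98% along the genome. Within the dispersed class it was lower in members (18.7% against 22.9%), and only outside that class was it higher (34.5% against 14.5%). When comparison peaks were reweighted to the GC content of the members in 2% bins, the difference in GGGCGG shrank to 1.53 percentage points. AGGTCA, the half-site of nuclear receptors, was in 21.6% of member and 27.2% of comparison windows, 8.41% at gene starts and 12.3% along the genome. The same reweighting left 0.393 percentage points in the other direction.

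The strongest members lay in tandem arrays. Of the 223 members with an untreated −log10 q over 20, 173 (77.6%) were tandem-array windows, 32 AT-rich, 16 other repeated and 2 dispersed, and none of the 27 single-copy members was among them. Median untreated fold enrichment over background was 8.05 in tandem arrays, 9.37 in AT-rich windows, 6.78 in other repeated, 5.83 in single-copy and 5.37 in dispersed windows. For the overlapping treated LAP-Smad3 peaks the medians were 5.59, 4.97, 4.85, 4.60 and 4.90. Fold and q depend on each library's own background and depth, so values of the untreated and treated lists were not subtracted. Placed by rank within its own list, the median tandem-array member stood at percentile 87.5 untreated and 96.5 in treated LAP-Smad3. The median AT-rich member stood at 81.6 and 38.8, and the median dispersed member at 30.6 and 67.2. Over all members the medians were 45.4 and 67.2. The lists hold 11266 and 62551 peaks, so percentiles of 1 list are not on the scale of the other, and the median −log10 q of dispersed members was 4.89 untreated and 5.14 treated.

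**Figure D4:**
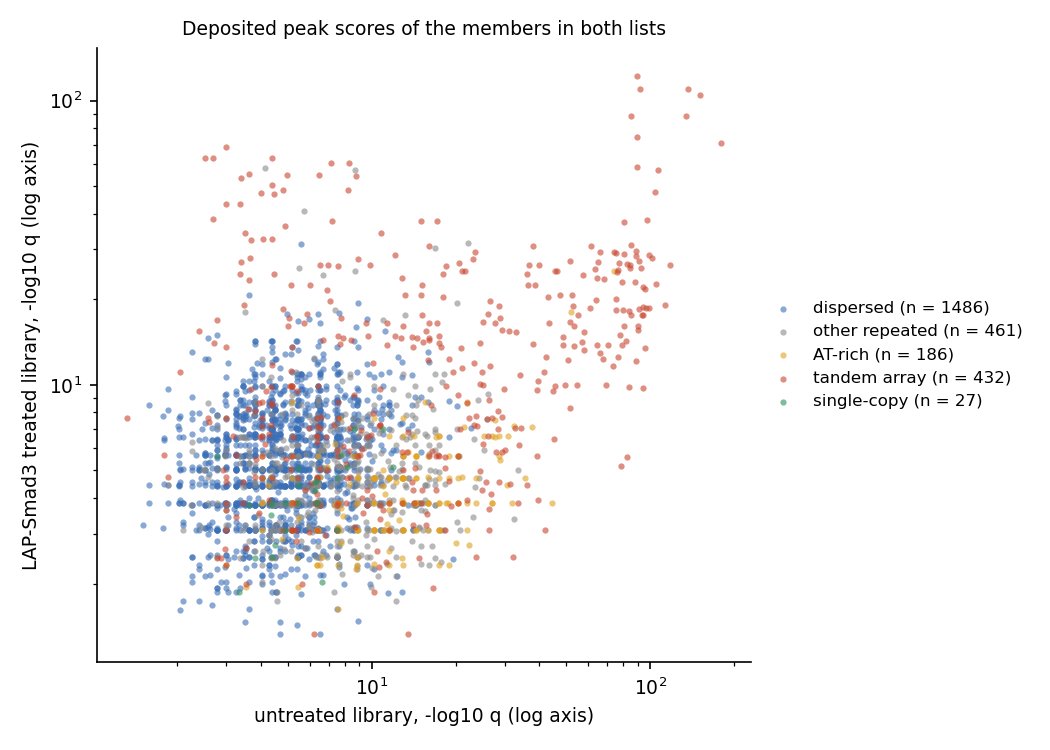
Deposited −log10 q of each member in the untreated list (x axis, log scale) and of its strongest overlapping treated LAP-Smad3 peak (y axis, log scale), coloured by sequence class. Tandem-array members reach 179.7 and 122; AT-rich members extend to the right at low treated values.

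Grouping tandem-array members less than 20 kb apart gave 22 arrays with at least 4 of them, holding 304 members. In the same intervals there were 425 untreated and 449 treated LAP-Smad3 peaks, 59 treated LAP-Smad2 peaks and 47 of the fourth list. In that order the whole lists hold 11266, 62551, 26828 and 3511 peaks, so these counts are not comparable shares. Tandem-array windows made up 11.2, 4.52, 4.35 and 12.9% of the whole lists, the highest share being that of the fourth. No treated LAP-Smad2 peak was called in 8 of the 22 arrays, and in 7 of them the fourth list had none either. The low LAP-Smad2 count follows partly from the rule, which admits only peaks without one. Each interval also runs only from its first to its last tandem-array member, so treated LAP-Smad2 peaks just beyond its ends are not counted. On chromosome 4, for example, the member that ends the DUX4 array was 639 bp from such a peak outside the interval. Copies of a unit share their sequence, so reads cannot be assigned to a single copy from these lists and the members of 1 array are not independent sites.

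Genes transcribed by RNA polymerase III supplied a pair of these arrays. The 17 numbered 5S rRNA genes of GENCODE, whose product is part of the large ribosomal subunit, lie on chromosome 1 with a median distance of 2241 bp between starts. At chr1:228608247-228644685, which spans 16 annotated genes, the untreated list had 24 peaks, 23 of them members, and the treated LAP-Smad3 list had 40, against 1 of treated LAP-Smad2 and 2 of the fourth list. Untreated fold enrichment of the 23 members ranged from 7.42 to 16.2 with a median of 13.9, and that of their treated LAP-Smad3 partners from 3.70 to 6.69 with a median of 4.98. Members at RNA5S14 and RNA5S12 were among the 10 highest ranked, with untreated −log10 q of 101 and 98.6 and treated values of 27.9 and 28.6. The printed 5S window comes from the first of these.

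A cluster of transfer RNA genes, also on chromosome 1, behaved alike. At chr1:161440766-161465765, which spans 18 tRNA genes of RefSeq, 13 of 15 untreated peaks were members, the treated LAP-Smad3 list had 24 peaks, treated LAP-Smad2 had 1 and the fourth list had 0. Untreated fold enrichment ran from 5.17 to 16.3 (median 9.69) and treated LAP-Smad3 from 2.95 to 5.13 (median 4.05). Over all 443 tRNA genes on the main chromosomes, 22 were overlapped by an untreated peak, 42 by treated LAP-Smad3, 3 by treated LAP-Smad2 and 0 by the fourth list. Members overlapped 16, all within 30 tRNA genes of the wider cluster. Untreated peaks therefore touched 4.97% of tRNA genes and treated LAP-Smad3 peaks 9.48%.

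Macrosatellites were the second group. DUX4, a germline and early embryonic transcription factor gene, sits in each unit of the D4Z4 repeat at the ends of chromosomes 4 and 10. At chr4:190065280-190090348 the untreated list had 21 peaks, 19 of them members, and treated LAP-Smad3 had 23, with 2 of treated LAP-Smad2 and 0 of the fourth list. The DUX4-like genes there start a median of 3294 bp apart. Untreated fold enrichment of the 19 members was 7.08 to 30.4 (median 18.3), and the treated LAP-Smad3 partners had 3.12 to 9.96 (median 5.79). The neighbouring arrays on chromosome 10, chr10:133665990-133684278 and chr10:133745481-133761477, held 10 and 9 members, with median untreated folds of 24.2 and 19.2 and treated medians of 7.42 and 6.66. The member at chromosome 10 with a fold of 31.5 was the most enriched of all members.

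On the X chromosome, DXZ4 is a macrosatellite at which the inactive X folds into separate domains, and DANT1 is a non-coding transcript from it. All 21 untreated peaks at chrX:115844350-115883825 were members, treated LAP-Smad3 had 53 peaks, treated LAP-Smad2 had 0 and the fourth list 1. Neighbouring member summits were a median of 1573.5 bp apart. Among pairs of member summits 2500 to 3500 bp apart, a range that itself bounds the value, the median was 2981.5 bp, over 14 pairs. Untreated fold enrichment was 3.40 to 20.7 (median 11.5) and treated LAP-Smad3 3.65 to 8.93 (median 6.92). DXZ4 and the 5S genes had more treated than untreated peaks, by 53 to 21 and 40 to 24, as did the D4Z4 arrays of chromosome 10, by 17 to 12 and 17 to 10. D4Z4 on chromosome 4 had 23 and 21. All of these ratios were below that of the whole lists, 62551 to 11266.

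**Figure D5:**
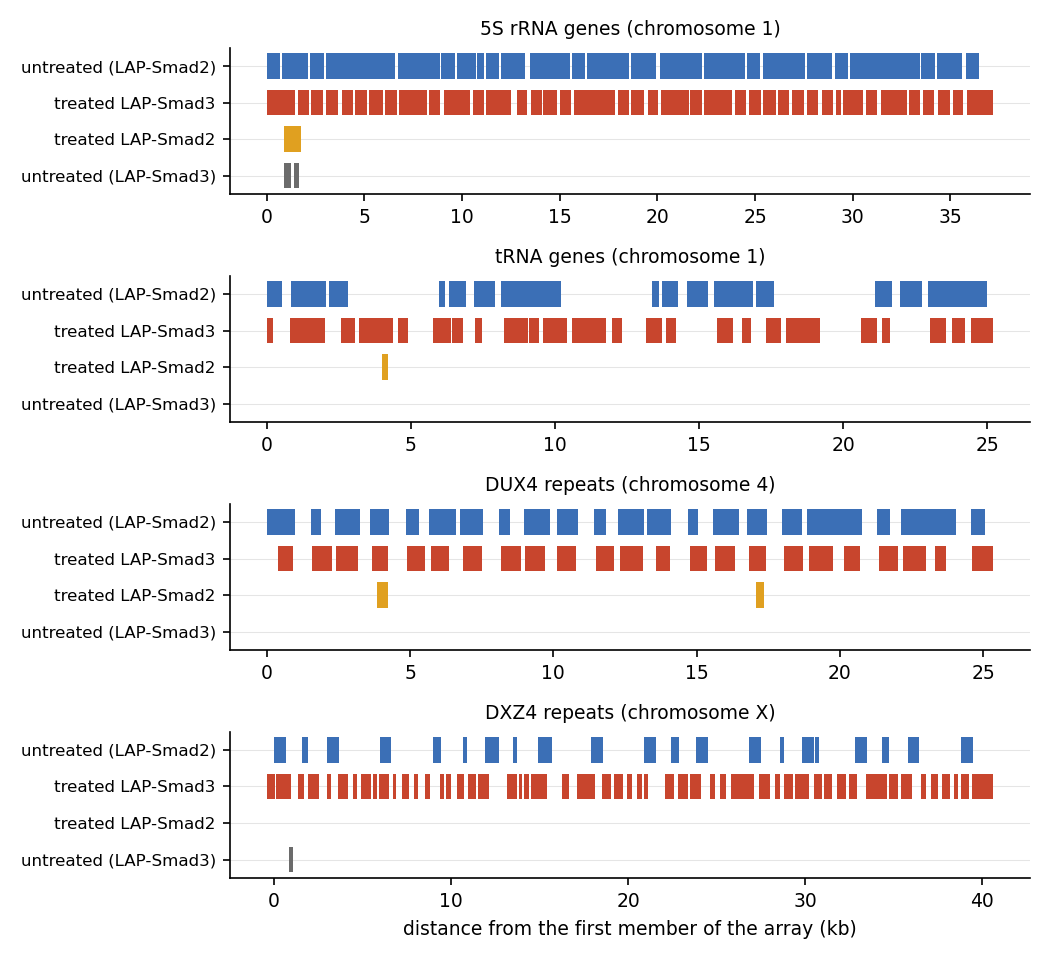
Peaks of the 4 lists (rows) at 4 tandem arrays, by distance from the start of the first member in kb (x axis); bars are peak intervals. The untreated and treated LAP-Smad3 rows hold peaks along the length of each array, with gaps between them. They have 24 and 40 peaks at the 5S genes and 21 and 53 at DXZ4, and the other rows hold 0 to 2 peaks.

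The ribosomal DNA on chromosome 21, which encodes the 18S, 5.8S and 28S rRNAs, differed from the arrays above in how many peaks the other lists had. A single block of it held up to 13 treated LAP-Smad2 peaks and 9 of the fourth list. In the 4 rDNA blocks between chr21:8207750 and chr21:8448758 there were 10, 5, 6 and 6 members. At chr21:8207750-8227989 the untreated list had 18 peaks and treated LAP-Smad3 19, beside 8 each in treated LAP-Smad2 and the fourth list. Of the 10 highest ranked members 7 lay in these blocks. The strongest, at chr21:8249122-8249536 over MIR6724-2, had an untreated −log10 q of 179.7 and a treated LAP-Smad3 value of 71.2, but it ended 47 bp from a treated LAP-Smad2 peak. The next, at chr21:8209677-8211527, had 151 and 105 and was 876 bp from one. Members at RNA5-8SN2 and MIR3648-1 were 697 and 107 bp away. For the rDNA the rule therefore selected single peaks within an array that all lists marked.

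Further arrays were less known. On chromosome 19, chr19:36271475-36308116 near the non-coding gene ENSG00000267053 held 24 members among 25 untreated peaks, and chr19:37271090-37301196 near ENSG00000267605 held 29 of 29. On chromosome 7, chr7:63749791-63765269 near the pseudogene CICP24 held 31 of 32, and chr7:56812685-56827198 near ENSG00000279072 held 24 of 26. In these 4 arrays the treated LAP-Smad3 list had 14, 20, 17 and 18 peaks, fewer than the untreated list, and treated LAP-Smad2 had 1, 0, 0 and 0. At EPPK1, the gene of the cytoskeletal linker epiplakin with repeats in its coding sequence, 6 of 8 untreated peaks were members, with median folds of 10.5 untreated and 3.58 treated. Arrays also stood out in the treated list, as at BRF1 on chromosome 14 (the gene of a polymerase III initiation factor), where 6 members had a median untreated fold of 8.15 and a treated one of 13.4. Near REXO1L11P on chromosome 8, the median folds were 4.83 and 14.0. There 16 of 45 untreated peaks were members, and treated LAP-Smad2 and the fourth list had 14 peaks each. Members were also the smaller part at chr2:91507963-91526922, with 6 of 25 untreated peaks, and at chr4:131727529-131764178, with 6 of 14.

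Members lay near transcript starts less often than comparison peaks did. Within 3 kb of any annotated transcript start lay 22.8% (21.3 to 24.5%) of members and 33.5% (33.1 to 33.9%) of comparison peaks, and within 3 kb of a protein-coding start 5.86% (5.02 to 6.84%) and 14.8% (14.5 to 15.1%). Introns held 43.6% of members and 36.9% of comparison peaks, intergenic sequence 32.3% and 26.1%, and exons outside promoters 1.31% and 3.48%. At equal list length the first pair was 26.5% and 31.4%. Untreated peaks in neither treated list had 23.0% (21.8 to 24.2%) near any transcript start, close to the members, but 9.33% (8.55 to 10.2%) near a protein-coding start, above them. Of the 152 members near a protein-coding start, 80 were dispersed, 35 other repeated, 26 tandem array, 8 single-copy and 3 AT-rich.

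The highest ranked of the promoter members without a near-identical copy was at PCGF3, a subunit of a Polycomb complex, 368 bp from the start (chr4:725475-725721). Its fold was 10.7 untreated and 7.14 in treated LAP-Smad3, with −log10 q of 16.9 and 10.9. ARRDC2, an arrestin-domain gene, had the same untreated values, a treated fold of 5.48 and a treated −log10 q of 5.89. Members near ANXA2R, SLC30A10 (a manganese exporter) and CEACAM19 were AT-rich, with a GC content of 1 to 3%, and treated −log10 q of 5.80, 4.72 and 3.25. Dispersed sequence underlay the members near FOXD4, PIK3C2G (a pair of members), SRRM3, FAM43B, SMPDL3A, PCDH15, STON2, ATP11A, PRKCI and PELP1 and near ENSG00000250803. Their median word counts ran from 3538 at SRRM3 to 18318 at FOXD4. The alignment ignored the most frequent short matches, so windows this repeated can lack a listed copy without being unique sequence. TBX15, a T-box factor of skeletal development, and PRIMA1, a membrane anchor of acetylcholinesterase, were the only single-copy promoters of these 20. TBX15 had folds of 5.83 and 5.29 with −log10 q of 5.44 and 5.12, and PRIMA1 folds of 5.42 and 4.74 with 4.38 and 3.81. Both single-copy promoters had lower values in each list than PCGF3 and ARRDC2.

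Outside promoters of coding genes, the 5 highest ranked members without a near-identical copy included 3 AT-rich windows. The first, at chr6:166287990-166289245, had a fold of 28.7 untreated and 12.1 treated, with −log10 q of 73.9 and 25.1 and a GC content of 8.5%. Another, in SHANK2, a postsynaptic scaffold gene, had folds of 14.1 and 7.72. Further members of these 5 lay at ENSG00000267605 next to the chromosome 19 array, with folds of 10.0 and 13.9, and in an intron on chromosome 13 near ENSG00000270522, with 11.1 and 8.09. The chromosome 13 window was dispersed, with a median word count of 29278. Among the 27 single-copy members, the strongest by untreated −log10 q, 11.9, was intergenic on chromosome 4, and the highest ranked, in an intron of SLC38A10, a solute carrier gene, had 11.0 untreated and 7.01 treated.

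Few genes of the TGFβ, Hippo and heat shock lists lay near a member, and the same held for protein-coding genes at large. Of 20033 protein-coding genes, 1295 (6.46%) had a member within 10 kb, and 14575 (72.8%) had a comparison peak. Of 144 genes in 11 lists covering TGFβ feedback, ligands and receptors, Smads, ID factors, AP-1, EMT factors, matrix, metastasis, cytostatic, Hippo and heat shock genes, 4 had a member (2.78%) and 113 a comparison peak (78.5%). None of the 10 feedback genes, 6 Smads, 4 ID genes, 14 AP-1 genes, 15 metastasis genes, 10 Hippo effectors and 17 heat shock genes had one. The joint share of 2.78% was below the 6.46% of all protein-coding genes. This difference was not tested, and with so few genes nothing is read from the counts, singly or together.

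The 4 genes were BMPR1B, ZEB2, FN1 and RBL1. BMPR1B, a type I receptor for bone morphogenetic proteins, had a dispersed member inside the gene, 191385 bp from its start, with −log10 q of 3.79 untreated and 7.86 treated. ZEB2, a repressor of epithelial genes, had a dispersed member 2210 bp from a transcript start, with 7.71 and 5.63. At FN1, the fibronectin gene, the member lay outside the gene, 5099 bp from its start, and had 4.68 and 5.76. RBL1 encodes p107, a pocket protein that restrains the cell cycle. Its member was other repeated with 24.3 and 4.71, and ended 65 bp from a treated LAP-Smad2 peak. Of the larger families, 31 of 515 zinc finger genes (6.02%), 2 of 83 ribosomal protein genes (2.41%), 6 of 88 clustered histone genes (6.82%) and 0 of 11 metallothionein genes had a member within 10 kb, beside 6.46% of all.

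The fourth list, from the library labelled LAP-Smad3 untreated, took no part in the rule. It overlapped 13 members, 0.502% (0.293 to 0.856%), against 0.631% of the comparison peaks (0.570 to 0.699%). These intervals overlap. Members are free of treated LAP-Smad2 by the rule, and in the comparison peaks that also lack such a peak the share was lower, at 0.161% (0.131 to 0.199%). The order also turned at a mutual overlap of 50%, with 2.56% of members and 0.903% of comparison peaks, for summits within 100 bp (3.03 and 0.881%) and without near-identical copies (0.873 and 0.421%). The 50% and 100-bp criteria also loosen the exclusion, so peaks that touch treated LAP-Smad2 by less can count as members there. These reversals therefore do not show the effect of a stricter overlap with LAP-Smad3 alone. Untreated peaks in both treated lists were in it in 15.1% and those with treated LAP-Smad2 alone in 19.4%, whereas those in neither were in it in 0.589%. Of the 13 members, 8 were other repeated, 3 tandem array and 2 dispersed. The highest ranked was a DUX4 repeat near DUX4L25 on chromosome 10, with −log10 q of 98.6 and 18.6 in the 2 lists of the rule.

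Members had a median width of 247 bp (quartiles 209 to 345 bp) and their treated LAP-Smad3 partners 293 bp. The 2592 members overlapped 2616 treated LAP-Smad3 peaks, and 96 members overlapped more than 1. The median overlap was 206.5 bp, 86.0% of the member's width. Just inside the rule, 66 members (2.55%) overlapped by under 50 bp, the smallest by 1 bp, and 118 (4.55%) lay under 100 bp from a treated LAP-Smad2 peak. Just outside it, 43 untreated peaks in neither treated list lay under 50 bp from a treated LAP-Smad3 peak, and 63 in both treated lists overlapped the LAP-Smad2 list by under 50 bp. The median gap from a member to a treated LAP-Smad2 peak was 33096 bp, and 374 members (14.4%) had one within 1 kb. Untreated and treated summits were a median of 61 bp apart, and within 100 bp in 68.0% of members. Of the 2616 treated LAP-Smad3 peaks, 113 themselves overlapped a treated LAP-Smad2 peak outside the member.

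Members were placed on all 24 chromosomes of the reference, from 26 on Y to 206 on chromosome 1. Placement is that of the authors' alignment, and whether the cells carry a Y chromosome was not examined. Relative to the untreated peaks of a chromosome, members were most frequent on chromosomes 9 (30.5%), 19 (30.5%) and 21 (29.7%) and least on Y (12.9%), 20 (15.8%) and 22 (16.7%), around the 23.0% of the whole list.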

How the data were processed

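Anti-GFP ChIP-seq libraries of MDA-MB-231 cells, 1 per condition and 4 in all, were made by the authors, who used Bowtie2 for the alignment of single-end reads (build hg38), a read extension of 200 bp and MACS2 for peak calling in each library, with a q-value threshold of 0.05. The submitters' processing notes also name bedtools. Tool versions, any control library and the handling of reads with several alignments are not given in the sources used here. The deposited lists hold each peak's interval, a score, the fold enrichment (a ratio over the local background), −log10 p-value, −log10 q-value and summit. They hold no read totals, so depth is unknown.

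Peaks were taken by the label of their sample. The members and all lists of genes and motifs were chosen with earlier results of these data known. Overlaps of 1 bp, 200-bp windows on the peak centre, GC content, CpG ratio and motif matches were computed with Python 3.11.15, pandas 2.3.3 and pysam 0.24.0. Genes came from GENCODE 44, tRNA genes from RefSeq (GRCh38.p14) and promoters were 3 kb around a transcript start. Near-identical copies were alignments by minimap2 2.31 in which 180 of 200 bases matched, with at most 200 listed. The aligner was set to ignore the most frequent short matches, so highly repeated windows can lack a listed copy. Removing windows with a copy therefore does not remove all repeated sequence. Occurrences of 20-base words were counted on both strands of hg38, a measure chosen after the data were seen, because the reference used here is not repeat-masked. Overlap, distance, motif and word counts were tested on simulated data. Named were the 10 members ranked highest by the lower percentile of −log10 q, the 20 highest near protein-coding starts and the 5 highest elsewhere without a near-identical copy, and listed genes with a member within 10 kb. Shares have Wilson 95% intervals, for counting error only. No test was made. The alternatives were a mutual overlap of 50%, summits within 100 bp, a q-value of 0.01, a 1-kb margin to LAP-Smad2, an equal list length, removal of copies or of 1 chromosome, other promoter definitions, summit windows and GC reweighting. Some sequences are not reported here.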

Additional observations from a re-analysis of the deposited data

How the results depend on the processing

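Values are member minus comparison differences in percentage points, unless stated otherwise. The 50% overlap and summit criteria also loosen the exclusion of treated LAP-Smad2 peaks, so they admit other peaks as members. The 2592 members became 922 with the LAP-Smad3 list limited to the length of the untreated list and 802 without windows with a near-identical copy, and stayed within 1.5 times under the other alternatives. The single-copy share, −36.5 as reported, was −35.5 at a mutual overlap of 50%, −35.5 for summits within 100 bp, −23.7 at equal list length, −52.1 without copies, −37.8 against comparison peaks free of LAP-Smad2, −39.0 for a median word count of 9 or less and −37.7 without tandem arrays. Near-identical copies (36.7) were at 34.8 with the 1-kb margin, 26.9 at equal length and 39.0 without LAP-Smad2. The fourth-list overlap, −0.129 as reported, turned to 1.66 at 50% overlap, 2.15 for summits, 0.452 without copies and 0.340 without LAP-Smad2, and was −1.04 at equal length. The GC content (−1.76) turned to 1.001 at 50% overlap, 1.02 for summits and 0.507 at equal length, and was −3.33 with the 1-kb margin, −9.68 without copies and −2.70 outside promoters. For the CpG ratio the difference is of means, 0.729 and 0.462, and not of the medians given above. It was 0.267, and 0.296 at 50% overlap and 0.234 without copies. The promoter share (−10.6) was −12.5 with the 1-kb margin, −4.91 at equal length, −16.9 without copies, −7.04 for 1 kb and −8.90 for protein-coding starts. CAGAC (−16.4) was −12.8 after GC reweighting and −20.2 without copies, and GGCGC (26.3) was 21.7 without copies. The AP-1 element (−2.30) was −1.73 and the E-box (−36.4) −28.9 after reweighting, the latter −34.0 in summit windows. AGGTCA (−5.57) turned to 0.393 after reweighting and was −0.650 in summit windows, −16.0 within dispersed and −9.72 within other windows. GGGCGG (7.97) was 1.53 after reweighting, 2.68 without copies and 11.2 in summit windows. Of 20033 protein-coding genes, 1295 had a member within 10 kb and 152 had one within 3 kb of a transcript start, counting every gene in reach of a member. The causes were not tested.

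The repeat-masked share was not run, since the reference used here carries no masking. No paired analysis was possible because each condition has 1 library, without replicate numbers. Leaving out a library was likewise not possible. Word-count alternatives and the splits by class were chosen after the data were seen. Windows of copied sequence cannot be placed on a single copy, and peak lists without read totals set no limit on sites that were not called.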
